A study of Mus musculus with 30 samples.

Results

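The 10 genes described here encode cell adhesion molecules and integrins: the immunoglobulin-type molecules Icam1, Vcam1 and Alcam, the hyaluronan receptor Cd44, the integrin alpha chains Itga2, Itga6 and Itgav, and the integrin beta chains Itgb1, Itgb3 and Itgb4. They were chosen by symbol as a family, with earlier results of these data known. All 10 of them were among the 17774 genes tested, out of 49315 in the count table. The series holds 30 RNA-seq libraries. Their source was 4T1-tdTomato, a line of mammary carcinoma cells derived from BALB/c mice and marked with a red fluorescent protein, sorted from female hosts as single tdTomato+ cells without DAPI or CD45 staining. BALB/c macro-mets came from lungs at days 21 and 23, BALB/c DTC (an abbreviation that the labels leave unexpanded) from lungs at day 7, and BALB/c tumours from the mammary fat pad at days 21 and 22. NSG macro-mets came from lungs at days 19 and 20, NSG DTC from lungs at day 7, and NSG tumours from the fat pad at day 10. NSG mice lack T, B and NK cells and also differ from BALB/c mice in strain background. Each of the 6 groups held 5 libraries. Lung groups followed a tail vein injection of 500000 cells and tumours an implant of 200000 cells. Between lung groups and tumours, route, organ and cell number therefore cannot be told apart from stage. Tail vein injection bypasses the escape of cells from a primary tumour, and the days of tumours and macro-mets also differed between hosts. The labels do not say whether libraries came from separate animals, so p-values measure the spread between these libraries, which may be technical.

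Adhesion molecules hold cells to matrix and to each other. An integrin is a pair of an alpha and a beta chain that binds a ligand outside the cell and links it, through talin and kindlin, to actin inside. Chains share partners: Itga2 pairs with Itgb1 to bind collagen, Itga6 pairs with Itgb1 or Itgb4 to bind laminin, and Itgav pairs with Itgb1, Itgb3 and other beta chains to bind RGD-containing proteins such as fibronectin, vitronectin and osteopontin. Itgb4 anchors epithelial cells to the basement membrane through hemidesmosomes. Icam1 and Vcam1 are counter-receptors for integrins of leukocytes and are induced by inflammatory cytokines in many cells, and Alcam binds itself and CD6 on T cells.

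Each library held 29832098 to 65621525 counts in total, with like ranges in the 6 groups. No member had fewer than 127 counts in any library. Within groups, log2 CPM correlated at 0.892 to 0.987, and no libraries were identical. General epithelial genes (9 genes, among them Krt8, Krt18 and Epcam) summed to 4587 to 10522 CPM over all libraries, and none of them was at 0 in a group. These genes are not specific to 4T1 cells. Lung markers were also counted: 16 lung epithelium markers, among them surfactant genes such as Sftpc, had summed levels of 75.6 to 113 CPM (macro-mets), 159 to 3675 CPM (DTC) and 28.7 to 117 CPM (tumours) for BALB/c hosts. For NSG hosts the sums were 54.6 to 81.2 CPM (macro-mets), 72.8 to 96.6 CPM (DTC) and 38.8 to 55.1 CPM (tumours). Fat pad tumours thus had such sums too, and BALB/c tumour replicate 2 (117 CPM) exceeded every macro-met and every NSG library. The sum therefore does not mark lung RNA alone. The highest sums were in BALB/c DTC replicates 1 and 2, called the lung-rich libraries here. The 4 libraries with the fewest genes detected (BALB/c tumour 4, NSG tumours 2 and 3, NSG macro-met 3) are called gene-poor. In bulk RNA, fewer cells of a type and less RNA per cell cannot be told apart.

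A second feature of the libraries bears on several members. Across genes, the departure of a library from the mean of all libraries followed GC content, with a rank correlation whose group median was 0.249 for macro-mets, 0.186 for DTC and -0.173 for tumours of BALB/c hosts. For NSG hosts these medians were 0.309 (macro-mets), -0.399 (DTC, single libraries at -0.594 to -0.311) and -0.061 (tumours), so GC-rich genes stood low in NSG DTC. The members lie on both sides of the median of tested genes (49.7% GC and 2927 bases in the longest transcript). Vcam1 has 40.1% GC, Itgav 43.5%, Itga2 43.7%, Alcam 44.0%, Cd44 44.5% and Itgb1 44.8%, against 52.1% in Itgb3, 55.4% in Icam1 and 60.0% in Itgb4. Every comparison was therefore fitted again with offsets that remove each library's trend on GC content and length. Values of members with these offsets are given where a call ended, appeared or changed direction. Genes of other lists are given without the offsets only.

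Per transcript length, the level of the members spanned a wide range. In TPM averaged over the 6 groups, Itgb1 stood highest at 556, followed by Itgb4 at 312 and Cd44 at 219.9, all at or above the 96.0 percentile of tested genes. Itga6 averaged 61.2 TPM, Vcam1 50.5, Itgav 32.1 and Alcam 29.6. The lowest were Icam1 at 19.9, Itgb3 at 14.3 and Itga2 at 13.6 TPM. Single libraries ranged over 226 to 1023 TPM for Itgb1, 192 to 493 for Itgb4 and 114 to 442 for Cd44, so neighbours in this order overlapped. The ratio of the highest to the lowest group mean, taken in CPM after TMM scaling, was 9.51 for Icam1, 9.31 for Itga2 and 7.73 for Alcam. It was 1.58 to 2.77 for the other 7 genes. Icam1 was highest in BALB/c DTC and lowest in NSG tumours, whereas Itga2 was highest in NSG DTC and lowest in NSG macro-mets. From here on, levels are CPM after TMM scaling, changes are log2 fold changes ± SE of the first group over the second (n = 5 per group), and a gene is called when its adjusted p over all tested genes is under 0.05.

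**Figure D1:**
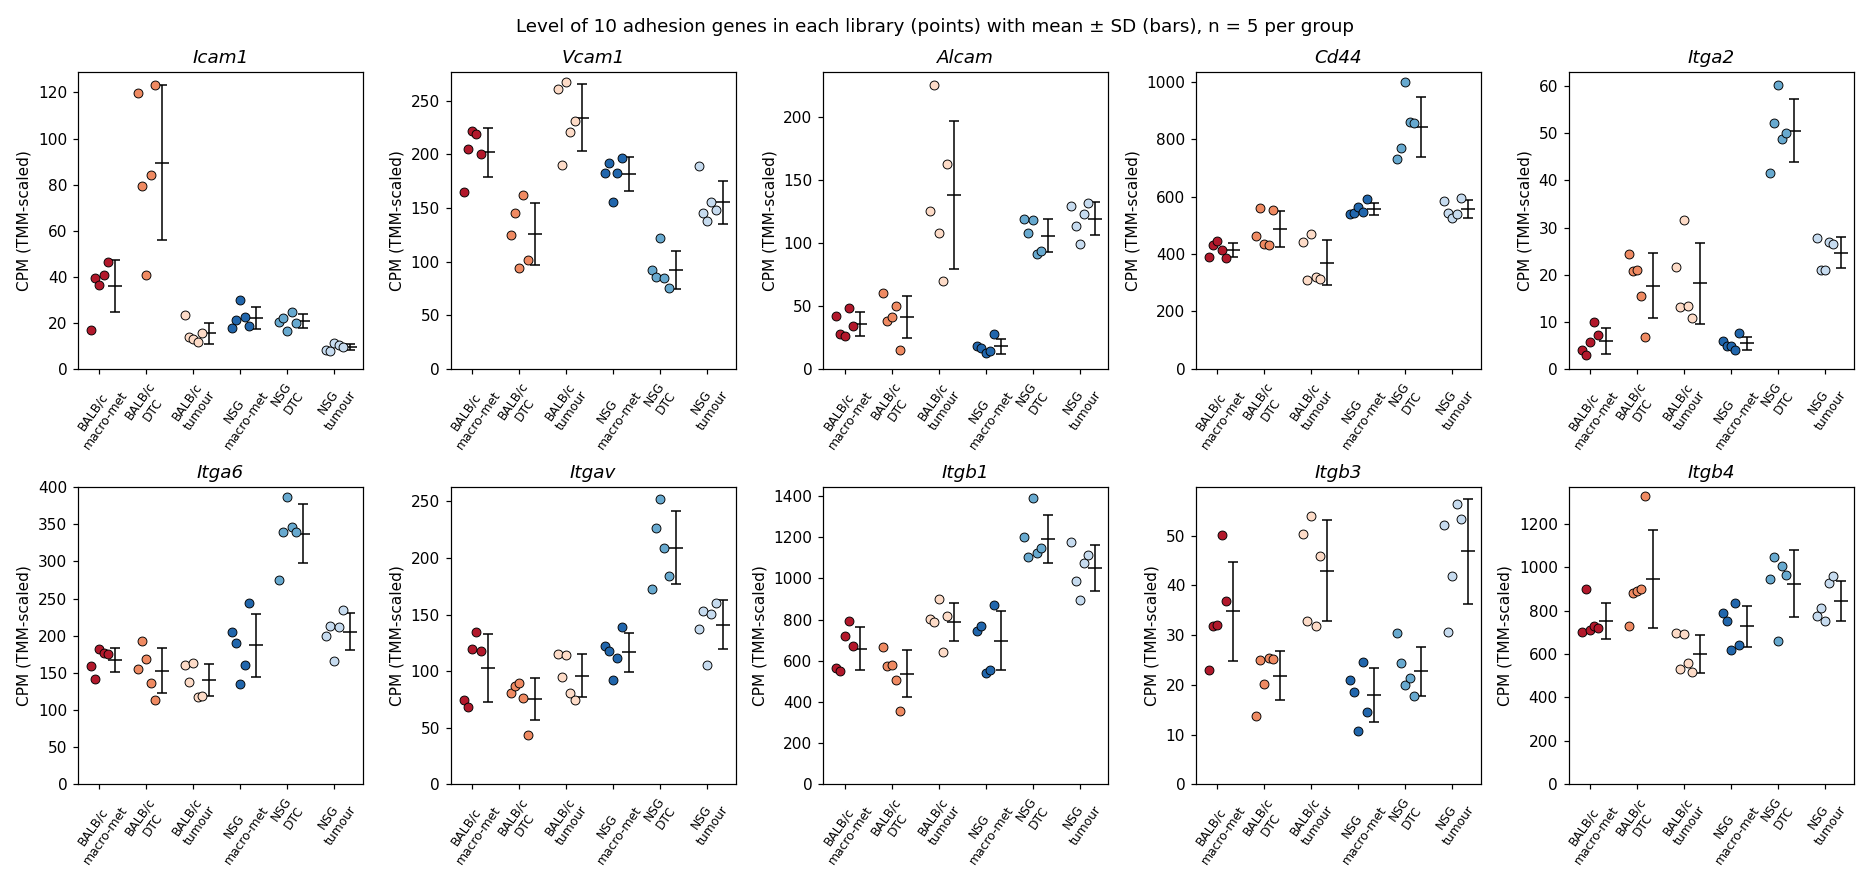
CPM of each of the 10 genes (vertical axes, each starting at 0) in every library (points) of the 6 groups (horizontal axes), with the mean and SD of 5 libraries as a bar. Icam1 peaks in BALB/c DTC, Itga2, Cd44, Itga6 and Itgav peak in NSG DTC, and Alcam is low in macro-mets of both hosts.

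DTC were set against tumours to ask how cells in lung at day 7 differed from those at the mammary site. In BALB/c hosts, 3 of 10 members rose and 4 fell, where 20.4% of all tested genes were called higher and 21% lower. The members' median log2 fold change was -0.19, against -0.09 over all tested genes. Icam1 (2.54 ± 0.25), Itgb4 (0.66 ± 0.14) and Cd44 (0.40 ± 0.11) rose, and Alcam (-1.75 ± 0.28), Itgb3 (-0.97 ± 0.22), Vcam1 (-0.90 ± 0.14) and Itgb1 (-0.56 ± 0.14) fell. In NSG hosts, 5 members rose and 2 fell, against 16% and 9.55% of all genes, with a median of 0.38 for the members and 0.06 for all genes. Icam1 (1.13 ± 0.24), Itga2 (1.03 ± 0.30), Itga6 (0.72 ± 0.14), Cd44 (0.60 ± 0.11) and Itgav (0.57 ± 0.18) rose, while Itgb3 (-1.04 ± 0.22) and Vcam1 (-0.75 ± 0.14) fell. The GC and length offsets changed this balance to 2 members higher and 3 lower in NSG hosts. Itga2 (0.36), Cd44 (0.11) and Itgav (-0.12) lost their calls there, and Alcam (-0.74) was called lower. In BALB/c hosts 3 were higher and 3 lower with the offsets. Markers of lung cell types move with this comparison. Endothelial marker sums were 81.6 to 112 CPM in NSG DTC and 9.07 to 25.2 CPM in NSG tumours. In BALB/c hosts they were 44.9 to 633 CPM in DTC and 8.83 to 39.0 CPM in tumours. A covariate built on such markers therefore cannot be told apart from site, and the part of lung RNA in these changes was not tested. With the mean log2 CPM of lung epithelium and endothelium markers as a covariate, 2 members stayed called in NSG hosts, where Icam1 (0.69), Itga2 (0.43), Itga6 (0.58), Itgav (0.21) and Itgb3 (-0.82) lost their calls. In BALB/c hosts Cd44 (0.43) and Itgb3 (-0.68) lost theirs, while Itgb4 (1.18) and Itgb1 (-0.98) moved farther from 0.

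Macro-mets were set against DTC to follow cells in lung at the later stage. In BALB/c hosts, 2 members rose and 2 fell, where 16.6% of tested genes were called higher and 14.2% lower. The median was -0.03 for the members and -0.04 for all tested genes. Vcam1 (0.69 ± 0.14) and Itgb3 (0.67 ± 0.22) rose, while Itga2 (-1.57 ± 0.31) and Icam1 (-1.32 ± 0.24) fell. In NSG hosts, 1 member rose and 7 fell, against 21.3% and 22.4% of all genes, with a median of -0.69 for the members and 0.02 for all genes. Vcam1 rose there (0.98 ± 0.14), and the falls were in Itga2 (-3.22 ± 0.33), Alcam (-2.57 ± 0.29), Itga6 (-0.85 ± 0.14), Itgav (-0.84 ± 0.19), Itgb1 (-0.78 ± 0.14), Cd44 (-0.60 ± 0.11) and Itgb4 (-0.35 ± 0.14). Of these 7 falls, those of Cd44 and Itgav turned into values above 0 with the GC and length offsets (0.13 and 0.21, neither called).

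Macro-mets against tumours compared late lung growth with the primary site. Among BALB/c libraries 1 member rose and 2 fell, against 19.6% and 18.2% of all tested genes, and the members' median was -0.06, against -0.03 for all genes. Among NSG libraries 1 rose and 4 fell, against 16.9% and 13.6%, with a median of -0.25 for the members and 0.02 for all genes. Icam1 rose and Alcam and Itga2 fell in either host, and Itgb1 (-0.59 ± 0.14) and Itgb3 (-1.39 ± 0.23) fell in NSG macro-mets as well. With the offsets, 7 members were called in BALB/c hosts, where Vcam1 (0.36), Cd44 (0.43), Itgav (0.53) and Itgb3 (-0.53) joined the other 3.

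Hosts were compared at each stage to ask what differed between hosts with and without T, B and NK cells. In BALB/c macro-mets against NSG macro-mets, 2 members were higher and 1 was lower, where 1.88% and 0.76% of all tested genes were called. Their median was 0.09, against -0.01 for all genes. In DTC, 2 were higher and 6 lower in BALB/c hosts, against 17.1% and 21.7% of all genes, with a median of -0.96 for the members and -0.01 for all genes. Icam1 (2.11 ± 0.25) and Vcam1 (0.45 ± 0.14) were higher, and Itga2 (-1.52 ± 0.31), Itgav (-1.47 ± 0.19), Alcam (-1.37 ± 0.28), Itgb1 (-1.15 ± 0.14), Itga6 (-1.14 ± 0.14) and Cd44 (-0.79 ± 0.11) were lower in BALB/c DTC. With the GC and length offsets 2 members were higher and 3 lower in BALB/c DTC, and Itga2, Alcam and Cd44 lost their calls. In tumours, 2 were higher and 5 lower in BALB/c hosts, against 11% and 12.6% of all genes, with a median of -0.43 for the members and 0.08 for all genes. Icam1 (0.71 ± 0.24) and Vcam1 (0.59 ± 0.14) were higher, and the lower ones were Cd44 (-0.59 ± 0.11), Itgav (-0.56 ± 0.19), Itga6 (-0.55 ± 0.14), Itgb4 (-0.50 ± 0.14) and Itgb1 (-0.41 ± 0.14). Over the 9 comparisons of 2 groups, 52 of 90 tests of members were called, and 41 of these were called in the same direction with the GC and length offsets. Over all tested genes 30.5% of such tests were called without the offsets, and no such share stands beside the 41. The members lie at the 59.9 to 98.5 percentile of level among tested genes, so that share also covers many genes with lower levels. The 9 comparisons share groups, so their tests are not independent of each other.

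**Figure D2:**
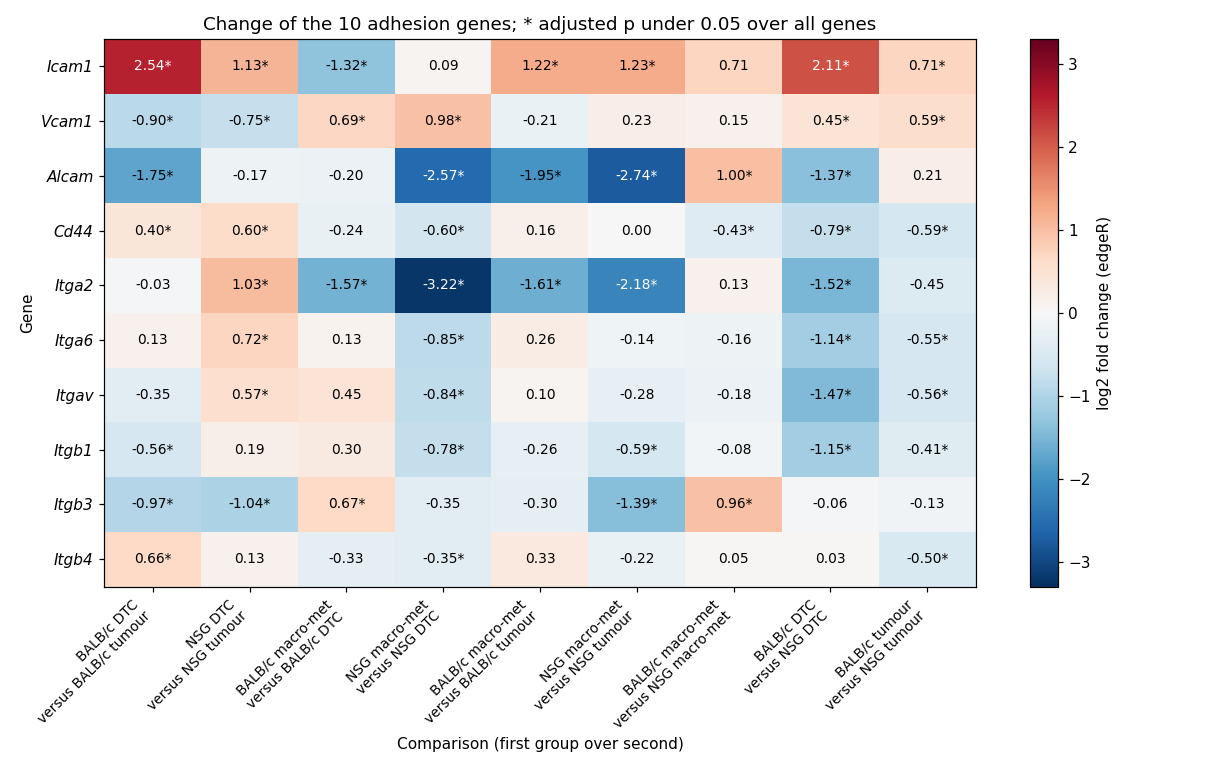
Log2 fold change of each gene (rows) in the 9 comparisons of 2 groups (columns, first group over second), coloured from blue (lower in the first group) to red (higher), with an asterisk where the adjusted p over all tested genes is under 0.05. Of 90 cells 52 carry an asterisk, and in 40 of these the 5 libraries of one group do not overlap the 5 of the other, where over all tested genes 30.5% of tests were called and 20.7% called with no overlap. The deepest values are the falls of Itga2 and Alcam in NSG macro-mets and the rise of Icam1 in BALB/c DTC.

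Icam1 (ENSMUSG00000037405) lies on chromosome 9 from 21015985 to 21028817 on the forward strand of GRCm38. Its product is the ligand of the leukocyte integrins LFA-1 and Mac-1, and cytokines that act through NF-kB and STAT factors induce it. Because Icam1 had the highest ratio of group means in CPM, its proximal promoter is shown. The stretch holds 250 bases that end just before the start site in the RefSeq table for GRCm38.p6 (chr9:21015690-21015939, forward strand). It lies upstream of the gene start given above, which is GENCODE's. Capitals mark the match to GGAAATTCC, a form of the NF-kB site, and the match to TTCNNNGAA, the GAS element bound by STAT factors.
Icam1 promoter: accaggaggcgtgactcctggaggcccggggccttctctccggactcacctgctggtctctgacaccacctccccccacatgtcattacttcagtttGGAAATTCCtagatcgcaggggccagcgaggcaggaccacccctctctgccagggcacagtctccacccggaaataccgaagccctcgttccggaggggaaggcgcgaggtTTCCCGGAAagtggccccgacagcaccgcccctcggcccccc
The capitals begin 153 and 42 bases before that start. On either strand, GGAAATTCC occurs in 0.286% and TTCNNNGAA in 7.02% of the 32851 mouse promoter stretches of this length in the table. No other form of the NF-kB site was searched, so its low share depends on the exact letters chosen. A search for the ISRE core (2.98% of promoters) and the AP-1 site TGANTCA (6.75%) found no match here, and the GC box GGGCGG (32.7%) matched once. The table held the promoters of 6 members, and those of Vcam1, Itga6, Itgb3 and Itgb4 were missing and not searched. Of the other 5 in the table (Alcam, Cd44, Itga2, Itgav and Itgb1), none matched GGAAATTCC or TTCNNNGAA in this window. These matches are letters in a stretch of DNA, and binding was not measured.

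BALB/c macro-mets had 17.1, 39.5, 36.3, 40.8 and 46.2 CPM of Icam1 in replicates 1 to 5, BALB/c DTC 119.8, 79.5, 41.0, 84.1 and 123 CPM and BALB/c tumours 23.3, 13.7, 13.0, 11.8 and 15.4 CPM. DTC and tumours did not overlap, and the lowest DTC library, replicate 3, still lay above the highest tumour. Icam1 rose 5.80-fold in DTC (2.54 ± 0.25, adjusted p = 5.22e-09). Macro-mets stood below DTC (-1.32 ± 0.24, adjusted p = 0.000108) and above tumours (1.22 ± 0.24, adjusted p = 0.000268). Replicate 1 stood apart as the lowest macro-met and overlapped the tumours. Without it the values were -1.12 against DTC and 1.38 against tumours, both still called.

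In NSG hosts no library reached the Icam1 range of BALB/c DTC. NSG macro-mets had 17.9, 21.2, 29.8, 22.7 and 18.7 CPM, NSG DTC 20.3, 22.0, 16.4, 24.8 and 20.1 CPM and NSG tumours 8.29, 7.85, 11.2, 10.2 and 9.54 CPM. Macro-mets and DTC overlapped (0.09 ± 0.24, adjusted p = 0.79, and -0.54 with the GC and length offsets, not called), and both lay above every tumour. The rise over tumours was 1.13 ± 0.24, adjusted p = 0.000961 in NSG DTC and 1.23 ± 0.24, adjusted p = 0.000376 in NSG macro-mets. BALB/c DTC exceeded NSG DTC by 4.32-fold (2.11 ± 0.25, adjusted p = 2.44e-07). The change between DTC and tumours was larger in BALB/c hosts by 1.40 ± 0.34, adjusted p = 0.00195, and the step between macro-mets and DTC differed by -1.41 ± 0.34, adjusted p = 0.00241. With the GC and length offsets these host differences were 0.73 and -0.77 and not called, while the rise in BALB/c DTC over BALB/c tumours (2.19) and over NSG DTC (1.55) stayed called.

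Icam1 moved with the sum of lung epithelium and endothelium markers across the 30 libraries (Pearson r = 0.78 of log2 values, or 0.29 after each group's mean was removed). Libraries of a group share stage and host. Without the 2 lung-rich libraries the rise in BALB/c DTC over tumours was 2.42, and with the lung marker covariate defined above it was 1.93, both called. In NSG hosts the covariate left 0.69 for DTC against tumours, not called. Leukocyte markers summed to 85.6 to 709 CPM for DTC and 54.5 to 187 CPM for tumours of BALB/c hosts, and their part in the Icam1 result was not tested. For BALB/c over NSG tumours the call (0.71 ± 0.24, adjusted p = 0.0325) was lost without the gene-poor libraries (0.77), without BALB/c tumour replicate 1 (0.51) or 5 (0.71), and without NSG tumour replicate 1 (0.67), 2 (0.66) or 5 (0.72). That call also ended in fits without the low-count filter, with limma-voom, and with limma on log2(TPM + 1) or log2(TPM + 0.1). BALB/c macro-mets exceeded NSG macro-mets by 0.71 ± 0.24, adjusted p = 0.12, which was called without BALB/c macro-met replicate 1 (0.90).

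Vcam1 (ENSMUSG00000027962, chromosome 3 from 116109949 to 116129688, reverse strand) encodes the ligand of the leukocyte integrin VLA-4. It went the other way from Icam1 in DTC of either host. BALB/c macro-mets had 165, 205, 222, 219 and 201 CPM, BALB/c DTC 125, 146, 94.6, 162 and 101 CPM and BALB/c tumours 261, 191, 267, 221 and 231 CPM. DTC lay below every macro-met and every tumour. The fall against tumours was -0.90 ± 0.14, adjusted p = 5.44e-06, and macro-mets stood 0.69 ± 0.14, adjusted p = 0.000258 above DTC.

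NSG macro-mets had 183, 192, 155, 182 and 197 CPM, NSG DTC 92.5, 86.2, 122, 84.9 and 75.1 CPM and NSG tumours 189, 146, 138, 156 and 149 CPM of Vcam1. Again every DTC library was below every library of the other stages. The fall against tumours was -0.75 ± 0.14, adjusted p = 0.000164 and the rise in macro-mets over DTC was 0.98 ± 0.14, adjusted p = 8.37e-07. Macro-mets and tumours differed by -0.21 ± 0.14, adjusted p = 0.225 in BALB/c and 0.23 ± 0.14, adjusted p = 0.217 in NSG hosts. With the GC and length offsets these were 0.36 and 0.72, both called. A host difference of the DTC change was not called (-0.14 ± 0.19, adjusted p = 0.614). BALB/c tumours were above NSG tumours (0.59 ± 0.14, adjusted p = 0.00177), and BALB/c DTC above NSG DTC (0.45 ± 0.14, adjusted p = 0.00912).

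Vcam1 is the member with the lowest GC content, and the GC and length offsets moved it in most comparisons. With them the fall in BALB/c DTC was -0.32 and not called, the fall in NSG DTC -1.35, the rise in NSG macro-mets over DTC 2.06 and the excess of BALB/c over NSG DTC 1.38. The excess in BALB/c tumours was 0.36 and not called, and the host differences became 1.02 for DTC over tumours and -1.38 for macro-mets over DTC, both called, the second standing at -0.29 ± 0.19 (not called) without them. The excess in BALB/c DTC was also not called without the lung-rich libraries (0.38), on log2(TPM + 1) (0.19) or without BALB/c DTC replicate 4 (0.33). Endothelial markers, which belong to a cell type that expresses Vcam1, summed to 44.9 to 633 CPM for DTC and 8.83 to 39.0 CPM for tumours of BALB/c hosts, and to 81.6 to 112 CPM for DTC and 9.07 to 25.2 CPM for tumours of NSG hosts. Their part in the Vcam1 result was not tested.

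Alcam (ENSMUSG00000022636, chromosome 16 from 52248996 to 52454074, reverse strand) encodes a homophilic adhesion molecule. Its level separated macro-mets from tumours in both hosts. BALB/c macro-mets had 41.8, 27.8, 26.5, 48.3 and 34.5 CPM, BALB/c DTC 60.5, 38.4, 41.4, 49.9 and 15.2 CPM and BALB/c tumours 125, 225, 108, 69.6 and 163 CPM. Macro-mets and DTC overlapped (-0.20 ± 0.28, adjusted p = 0.638), and every tumour was above both. Alcam fell 3.86-fold in macro-mets against tumours (-1.95 ± 0.29, adjusted p = 8.23e-06) and 3.37-fold in DTC (-1.75 ± 0.28, adjusted p = 1.78e-05).

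NSG macro-mets had 18.4, 16.6, 12.4, 14.3 and 27.8 CPM, NSG DTC 119, 108, 118, 91.0 and 93.3 CPM and NSG tumours 129.7, 113, 99.5, 123 and 132 CPM of Alcam. Here DTC sided with tumours, which they overlapped (-0.17 ± 0.27, adjusted p = 0.697). The fall in macro-mets was -2.74 ± 0.29, adjusted p = 1.22e-07 against tumours and -2.57 ± 0.29, adjusted p = 6.06e-08 against DTC. The sizes of the steps between stages thus differed between hosts, by -1.58 ± 0.39, adjusted p = 0.0025 for DTC over tumours and 2.37 ± 0.40, adjusted p = 0.000129 for macro-mets over DTC. Group means had the same order in both hosts, from tumours down to DTC and then macro-mets. BALB/c DTC were below NSG DTC (-1.37 ± 0.28, adjusted p = 0.000273).

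The GC and length offsets narrowed these host differences of Alcam to -0.60 (not called), 1.49 (called) and, for BALB/c over NSG DTC, -0.55 (not called), and NSG DTC were then below NSG tumours (-0.74, called). The falls against tumours in BALB/c DTC (-1.34), BALB/c macro-mets (-1.57) and NSG macro-mets (-2.46) stayed called. BALB/c macro-mets exceeded NSG macro-mets by 1.00 ± 0.28, adjusted p = 0.0497, a call at the edge that was lost when any 1 of BALB/c macro-met replicates 1 (0.97), 4 (0.89) or 5 (1.04), NSG macro-met replicates 1 (1.04), 2 (0.98), 3 (0.93) or 4 (0.96), NSG DTC replicate 2 (1.02) or BALB/c tumour replicate 5 (1.00) was left out.

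Cd44 (ENSMUSG00000005087, chromosome 2 from 102811141 to 102901665, reverse strand) encodes the main receptor for hyaluronan. In epithelial cells Esrp1 keeps variable exons in its transcript, and gene counts do not separate these isoforms. Cd44 averaged 414 ± 25.5 CPM (macro-mets), 488 ± 63.2 (DTC) and 370.5 ± 77.6 (tumours) within BALB/c hosts (SD, n = 5 each). It averaged 557 ± 21.3 CPM in NSG macro-mets, 842 ± 103 in NSG DTC and 557 ± 30.2 in NSG tumours. NSG DTC, at 731 to 999 CPM, lay above all 25 other libraries.

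Cd44 rose in DTC over tumours by 0.40 ± 0.11, adjusted p = 0.00398 in BALB/c hosts, where the groups overlapped, and by 0.60 ± 0.11, adjusted p = 0.000176 in NSG hosts, where they did not. In NSG macro-mets it fell against DTC (-0.60 ± 0.11, adjusted p = 4.15e-05) and differed from NSG tumours by 0.00 ± 0.11 (not called). It was lower in BALB/c than in NSG hosts in macro-mets (-0.43 ± 0.11, adjusted p = 0.0222), DTC (-0.79 ± 0.11, adjusted p = 1.82e-06) and tumours (-0.59 ± 0.11, adjusted p = 0.000162). With the GC and length offsets no comparison of 2 groups that included NSG DTC was called. The values were 0.11 over NSG tumours, 0.13 for NSG macro-mets over DTC and 0.01 for BALB/c over NSG DTC, while the rise in BALB/c DTC was 0.80 and called. BALB/c macro-mets over DTC, at -0.24 ± 0.11 and not called without the offsets, became -0.37 and called, as did the host difference of DTC over tumours (-0.20 ± 0.15 without and 0.69 with them). The macro-met difference was not called when 1 of BALB/c macro-met replicates 1 (-0.39), 2 (-0.42), 4 (-0.42) and 5 (-0.39) and NSG macro-met replicates 1 (-0.42), 3 (-0.39), 4 (-0.42) and 5 (-0.39) was left out. The host difference of the step between macro-mets and DTC (0.36 ± 0.15, not called) passed without BALB/c DTC replicate 2 (0.43) or 5 (0.45) or tumour replicate 3 of that host (0.39), and was -0.49 (not called) with the offsets.

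Itga2 (ENSMUSG00000015533, chromosome 13 from 114833081 to 114932100, reverse strand) encodes the alpha chain of the collagen receptor that it forms with Itgb1. It was low in macro-mets of both hosts. BALB/c macro-mets had 3.96, 2.86, 5.68, 9.90 and 7.31 CPM, BALB/c DTC 24.4, 20.7, 21.1, 15.6 and 6.72 CPM and BALB/c tumours 21.7, 13.1, 31.6, 13.4 and 10.8 CPM. Every macro-met was below every tumour, and the highest macro-met, replicate 4, exceeded only DTC replicate 5. Itga2 fell in macro-mets 2.97-fold against DTC (-1.57 ± 0.31, adjusted p = 0.000268) and 3.04-fold against tumours (-1.61 ± 0.31, adjusted p = 0.000207), while DTC and tumours overlapped (-0.03 ± 0.30, adjusted p = 0.94).

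NSG macro-mets had 5.84, 4.88, 4.84, 3.98 and 7.60 CPM, NSG DTC 41.5, 52.3, 60.2, 48.8 and 50.0 CPM and NSG tumours 27.8, 21.1, 21.1, 27.0 and 26.5 CPM of Itga2, with no overlap between any of the 3 groups. The fall in NSG macro-mets was 9.31-fold against DTC (-3.22 ± 0.33, adjusted p = 9.47e-09), the largest change of a member in any comparison, and 4.54-fold against tumours (-2.18 ± 0.32, adjusted p = 7.76e-06). Itga2 was higher in NSG DTC than in NSG tumours (1.03 ± 0.30, adjusted p = 0.0116) and lower in BALB/c DTC than in NSG DTC (-1.52 ± 0.31, adjusted p = 0.000215). With the offsets the last 2 values were 0.36 and -0.55 and not called, while BALB/c over NSG tumours (-0.45 ± 0.30, not called) became -0.63 and called. The rise in NSG DTC was also not called without the gene-poor libraries (0.82). All 4 falls in macro-mets stayed called with the offsets, at -1.66 and -1.22 in BALB/c hosts and -2.20 and -1.85 in NSG hosts. The host difference of the macro-met over DTC step (1.65 ± 0.43, adjusted p = 0.0049) was 0.54 with the offsets and not called. That of the DTC over tumour change (-1.07 ± 0.43, adjusted p = 0.053) passed when 1 of BALB/c tumour replicates 2 (-1.16), 4 (-1.18) and 5 (-1.21), BALB/c DTC replicates 1 (-1.22), 2 (-1.15) and 3 (-1.16), BALB/c macro-met replicates 1 (-1.08), 2 (-1.09) and 4 (-1.07) and NSG macro-met replicate 5 (-1.08) was left out, and stood at 0.08 with the offsets.

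Itgb1 (ENSMUSG00000025809, chromosome 8 from 128685654 to 128733200, forward strand) encodes the beta chain that pairs with the largest number of alpha chains. It averaged 659 ± 104 CPM (macro-mets), 536 ± 115 (DTC) and 789 ± 93.3 (tumours) within BALB/c hosts, and 696 ± 143 (macro-mets), 1193 ± 117 (DTC) and 1049 ± 111 (tumours) within NSG hosts (SD, n = 5 each). BALB/c DTC fell below BALB/c tumours (-0.56 ± 0.14, adjusted p = 0.00215), although NSG DTC did not differ beyond the test from NSG tumours (0.19 ± 0.14, adjusted p = 0.364, 95% interval -0.11 to 0.48). The difference between hosts in that change was -0.74 ± 0.20, adjusted p = 0.00436. NSG macro-mets fell below NSG DTC (-0.78 ± 0.14, adjusted p = 4.14e-05) and NSG tumours (-0.59 ± 0.14, adjusted p = 0.00203). BALB/c DTC, at 356 to 665 CPM, lay below all NSG DTC, at 1105 to 1392 CPM (-1.15 ± 0.14, adjusted p = 4.06e-07). With the offsets these calls remained, at -0.42, -0.39, -0.44, -0.47 and -0.80 in the same order. The lower level in BALB/c than in NSG tumours (-0.41 ± 0.14, adjusted p = 0.0336) was not called without BALB/c tumour replicate 2 (-0.41), 4 (-0.34) or 5 (-0.42) or NSG tumour replicate 1 (-0.37), 4 (-0.40) or 5 (-0.38), and the value in BALB/c macro-mets over DTC (0.30 ± 0.14, not called) was called without BALB/c DTC replicate 1 (0.40) or BALB/c macro-met replicate 2 (0.38).

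Itga6 (ENSMUSG00000027111, chromosome 2 from 71745616 to 71858416, forward strand) encodes the laminin-binding alpha chain that pairs with Itgb4 or Itgb1. NSG macro-mets had 205, 190.2, 135, 160.2 and 244 CPM, NSG DTC 275, 339.5, 386, 347 and 339 CPM and NSG tumours 199.9, 213, 166, 211 and 235 CPM, and every NSG DTC library exceeded all libraries of the other groups. The rise in NSG DTC over tumours was 0.72 ± 0.14, adjusted p = 0.000397, and the fall in NSG macro-mets against DTC was -0.85 ± 0.14, adjusted p = 1.16e-05. In BALB/c hosts the 3 stages overlapped, at 142 to 182 CPM in macro-mets, 113 to 192 in DTC and 118 to 163 in tumours, and no stage comparison was called. BALB/c DTC were 2.21-fold below NSG DTC (-1.14 ± 0.14, adjusted p = 4.7e-07), and the host differences were -0.59 ± 0.20, adjusted p = 0.0223 for DTC over tumours and 0.98 ± 0.20, adjusted p = 0.000566 for macro-mets over DTC. Itga6 has a GC content near the median, and the offsets left 0.72, -0.99 and -1.05 for these NSG DTC comparisons, all called. The host difference for DTC over tumours lost its call without the gene-poor libraries (-0.46), and the rise in NSG DTC lost it with the lung marker covariate (0.58).

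Itgb4 (ENSMUSG00000020758, chromosome 11 from 115974709 to 116008412, forward strand) encodes the beta chain of the hemidesmosome integrin. Its group means varied least among the members. BALB/c macro-mets had 701, 898, 712, 731 and 721 CPM, BALB/c DTC 731, 882, 889, 900.2 and 1328 CPM and BALB/c tumours 697, 533, 692, 557 and 517 CPM, with every macro-met and every DTC above every tumour. The rise in DTC over tumours was 0.66 ± 0.14, adjusted p = 0.000283. Neither the difference of macro-mets from DTC (-0.33 ± 0.14, adjusted p = 0.0648) nor that from tumours (0.33 ± 0.14, adjusted p = 0.056) was called, but both lie near the threshold: 7 of 12 alternative settings called the first, at up to -0.60 with the lung marker covariate, and 5 of 12 the second, at up to 0.58 with it. In NSG hosts Itgb4 averaged 727 ± 94.4 CPM in macro-mets, 925 ± 153 in DTC and 845 ± 92.9 in tumours. DTC and tumours did not differ beyond the test (0.13 ± 0.14, adjusted p = 0.535, 95% interval -0.15 to 0.41), and BALB/c over NSG DTC was 0.03 ± 0.14, with a 95% interval of -0.25 to 0.31.

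For Itgb4 the host difference of the DTC over tumour change was 0.53 ± 0.19, adjusted p = 0.0327. The call ended when 1 of BALB/c tumour replicates 2 (0.49), 4 (0.50) and 5 (0.48), NSG tumour replicates 4 (0.49) and 5 (0.47), BALB/c DTC replicate 5 (0.36) and NSG DTC replicate 3 (0.45) was left out. A fall in NSG macro-mets against DTC (-0.35 ± 0.14, adjusted p = 0.039) lost its call without NSG DTC replicates 1 (-0.33), 2 (-0.29), 4 (-0.30) or 5 (-0.33) or NSG macro-met replicates 2 (-0.36), 3 (-0.32) or 5 (-0.32). In BALB/c hosts the macro-met value against DTC was called without BALB/c DTC replicate 1 (-0.41) or NSG DTC replicate 3 (-0.34), and that against tumours without BALB/c DTC replicate 5 (0.31) or tumour replicate 1 of that host (0.38). The host difference of macro-mets over tumours (0.55 ± 0.19, not called) was also called without BALB/c DTC replicate 5 (0.57). With the offsets Itgb4 was 0.60 in BALB/c DTC over tumours and -0.65 in NSG macro-mets over DTC, both called. They also called the macro-met values against DTC in BALB/c hosts (-0.40) and against tumours in NSG hosts (-0.46, standing at -0.22 ± 0.14 without them), and the host difference of macro-mets over tumours (0.66).

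Itgav (ENSMUSG00000027087, chromosome 2 from 83724397 to 83806916, forward strand) encodes the alpha chain of the vitronectin receptors. It averaged 103 ± 29.9 CPM (macro-mets), 75.5 ± 18.6 (DTC) and 95.9 ± 18.8 (tumours) within BALB/c hosts, and 116 ± 17.0 (macro-mets), 209 ± 32.1 (DTC) and 141 ± 21.6 (tumours) within NSG hosts (SD, n = 5 each). NSG DTC lay above all other libraries. Itgav was 2.77-fold lower in BALB/c DTC than in NSG DTC (-1.47 ± 0.19, adjusted p = 6.82e-07), and the host differences were -0.91 ± 0.26, adjusted p = 0.00726 for DTC over tumours and 1.29 ± 0.26, adjusted p = 0.000556 for macro-mets over DTC. With the GC and length offsets the value was -0.44 (called) for BALB/c over NSG DTC, 0.30 and 0.13 (not called) for the host differences, and -0.12 (not called) for NSG DTC over tumours, which stood at 0.57 ± 0.18, adjusted p = 0.0229 without them. BALB/c DTC over tumours was -0.35 ± 0.19 without and 0.19 with the offsets, called in neither fit, and BALB/c macro-mets over DTC was 0.34 and called with them.

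Single libraries also decided calls of Itgav. NSG DTC over tumours was not called without NSG tumour replicate 1 (0.53) or 3 (0.45) or NSG DTC replicate 2 (0.49), 3 (0.46) or 4 (0.53). BALB/c tumours were below NSG tumours (-0.56 ± 0.19, adjusted p = 0.0278), but not called without BALB/c tumour replicate 2 (-0.56), 4 (-0.50) or 5 (-0.48) or NSG tumour replicate 2 (-0.53), 4 (-0.53) or 5 (-0.50). In BALB/c macro-mets over DTC (0.45 ± 0.19, adjusted p = 0.0668) a call appeared without BALB/c macro-met replicate 1 (0.57) or 2 (0.59), BALB/c DTC replicate 2 (0.52) or 3 (0.55) or NSG tumour replicate 3 (0.47).

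Itgb3 (ENSMUSG00000020689, chromosome 11 from 104608000 to 104670476, forward strand) encodes the beta chain of the vitronectin receptor and, with Itga2b, of the platelet fibrinogen receptor. BALB/c macro-mets had 23.0, 31.9, 32.1, 50.0 and 36.9 CPM, BALB/c DTC 13.8, 24.9, 20.1, 25.4 and 25.1 CPM and BALB/c tumours 50.2, 32.8, 53.9, 31.9 and 46.0 CPM. All DTC were below all tumours, and macro-mets lay between them and overlapped both. Itgb3 fell in BALB/c DTC against tumours (-0.97 ± 0.22, adjusted p = 0.00084) and rose in BALB/c macro-mets against DTC (0.67 ± 0.22, adjusted p = 0.0213). That rise lost its call without BALB/c DTC replicate 1 (0.55), without BALB/c macro-met replicate 4 (0.49) and with the offsets (0.48).

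NSG macro-mets had 21.0, 18.6, 10.8, 24.6 and 14.4 CPM, NSG DTC 30.3, 24.5, 19.9, 21.3 and 17.7 CPM and NSG tumours 52.2, 30.7, 42.0, 56.3 and 53.3 CPM of Itgb3. Tumours were above every library of the other 2 stages. Itgb3 fell in NSG DTC (-1.04 ± 0.22, adjusted p = 0.000873) and in NSG macro-mets (-1.39 ± 0.23, adjusted p = 2.97e-05), which did not differ beyond the test from each other (-0.35 ± 0.22, adjusted p = 0.213). BALB/c macro-mets exceeded NSG macro-mets (0.96 ± 0.22, adjusted p = 0.0114), a call lost without BALB/c macro-met replicate 4 (0.81). The step between macro-mets and DTC differed between hosts by 1.02 ± 0.31, adjusted p = 0.0152. It was the only member with a called host difference for macro-mets over tumours (1.09 ± 0.31, adjusted p = 0.0365, where 3.53% of tested genes were called higher), and leaving out any 1 of BALB/c tumour replicates 2 (1.01) and 4 (1.02), NSG tumour replicates 1 (1.08), 4 (1.04) and 5 (1.06), BALB/c macro-met replicates 4 (0.94) and 5 (1.09) and NSG macro-met replicates 3 (0.98) and 5 (1.05) ended that call. Platelet markers, which mark another source of Itgb3, summed to at most 9.57 CPM in any library, and their part in the Itgb3 result was not tested.

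Counted together, the change between DTC and tumours differed between hosts for 6 members, 2 higher and 4 lower in BALB/c than in NSG hosts, where 15% and 18.4% of tested genes were called. The step between macro-mets and DTC differed for 7 members, 6 higher and 1 lower in BALB/c, against 16.6% and 11.6% of all genes. For macro-mets over tumours it differed for 1 member, against 3.53% and 1.7%. Among the 6 members higher in the macro-met step (Alcam, Itga2, Itga6, Itgav, Itgb1 and Itgb3), 4 stayed called with the offsets, with Alcam at 1.49, Itga6 at 0.94, Itgb1 at 0.68 and Itgb3 at 0.91. These 3 contrasts share libraries, so they are not independent of each other.

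**Figure D3:**
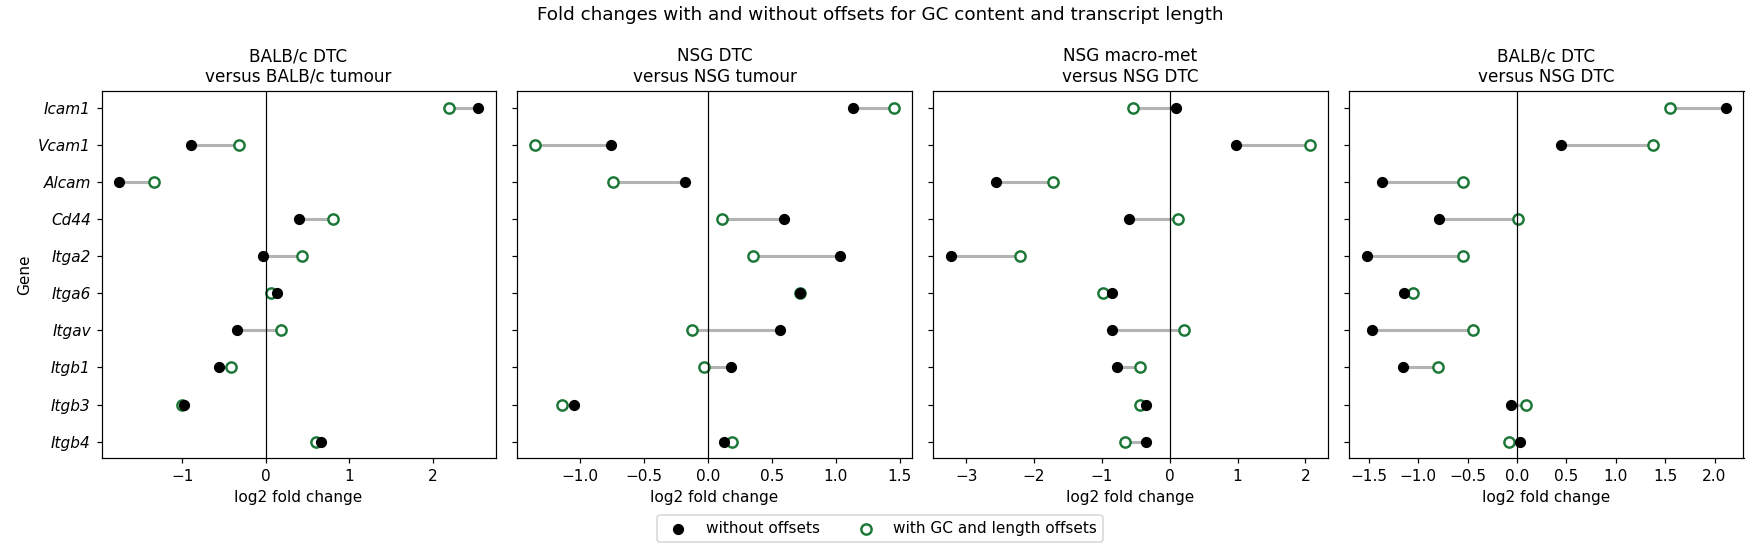
Log2 fold change of each gene (rows) in 4 comparisons (panels), as fitted (black points) and with offsets for GC content and transcript length (open green points), joined by a grey line. In NSG DTC over tumours Itgav passes through 0, and in BALB/c over NSG DTC Cd44 ends at 0.01, while Icam1 stays above 1 in the 3 panels in which it was called.

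Because integrin chains work as pairs, ratios of chains were taken within each library as differences of log2(TPM + 0.1), which do not depend on library size. Of 36 tests over 4 pairs and 9 comparisons, 14 had an exact permutation p under 0.05 after Benjamini-Hochberg adjustment over the 36 (2-sided, smallest possible p 0.00794). The collagen receptor ratio, Itga2 over Itgb1, was -6.91 ± 0.48 (macro-mets), -5.05 ± 0.40 (DTC) and -5.58 ± 0.55 (tumours) within BALB/c hosts (mean ± SD, n = 5 each). It was -7.02 ± 0.20 in NSG macro-mets, -4.61 ± 0.17 in NSG DTC and -5.45 ± 0.08 in NSG tumours. Macro-mets stood below DTC in BALB/c (-1.87, exact permutation adjusted p = 0.0238) and NSG hosts (-2.41, exact permutation adjusted p = 0.0238). They also stood below tumours in BALB/c (-1.33, exact permutation adjusted p = 0.0238) and NSG hosts (-1.57, exact permutation adjusted p = 0.0238). NSG DTC were above NSG tumours (0.84, exact permutation adjusted p = 0.0238), and the hosts did not differ at any stage beyond the test.

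The balance of laminin chains differed between DTC of the 2 hosts. Itgb4 over Itga6 was 2.98 ± 0.56 in BALB/c DTC and 1.81 ± 0.39 in NSG DTC (1.18, exact permutation adjusted p = 0.0238), where no library overlapped. In NSG hosts DTC were below tumours (-0.60, exact permutation adjusted p = 0.0238), whose ratio was 2.41 ± 0.11. Itgb4 over Itgb1 was 0.04 ± 0.65 in BALB/c DTC, -1.18 ± 0.21 in BALB/c tumours and -1.16 ± 0.40 in NSG DTC, so BALB/c DTC were above tumours (1.22, exact permutation adjusted p = 0.0238) and above NSG DTC (1.20, exact permutation adjusted p = 0.0238). BALB/c DTC replicate 5 had the highest value of either ratio. The vitronectin pair, Itgb3 over Itgav, was -1.87 ± 0.43 in NSG macro-mets, -2.34 ± 0.43 in NSG DTC and -0.74 ± 0.41 in NSG tumours, with DTC (-1.60, exact permutation adjusted p = 0.0238) and macro-mets (-1.13, exact permutation adjusted p = 0.0408) below tumours. BALB/c libraries stood above NSG libraries in macro-mets (1.18, exact permutation adjusted p = 0.0238) and DTC (1.43, exact permutation adjusted p = 0.0408). Without the 4 gene-poor libraries, which leaves smaller groups, 6 of the 36 tests passed.

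Since the chains of a pair differ in GC content, the ratios were also taken after the GC and length trends were removed, a step added after the data were seen, and 20 of 36 then passed. Itga2 over Itgb1 remained lower in macro-mets than in DTC (-1.90 in BALB/c and -1.74 in NSG hosts). Itgb4 over Itgb1 remained higher in BALB/c DTC than in tumours (1.01) and NSG DTC (0.72), and Itgb4 over Itga6 remained higher in BALB/c than in NSG DTC (0.98). Itgb3 over Itgav was -1.02 for NSG DTC over tumours and 0.54 for BALB/c over NSG DTC, the second no longer passing (exact permutation adjusted p = 0.0519). For NSG macro-mets over DTC it was -0.67 (exact permutation adjusted p = 0.0204), against 0.47 without the offsets, where it had not passed.

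**Figure D4:**
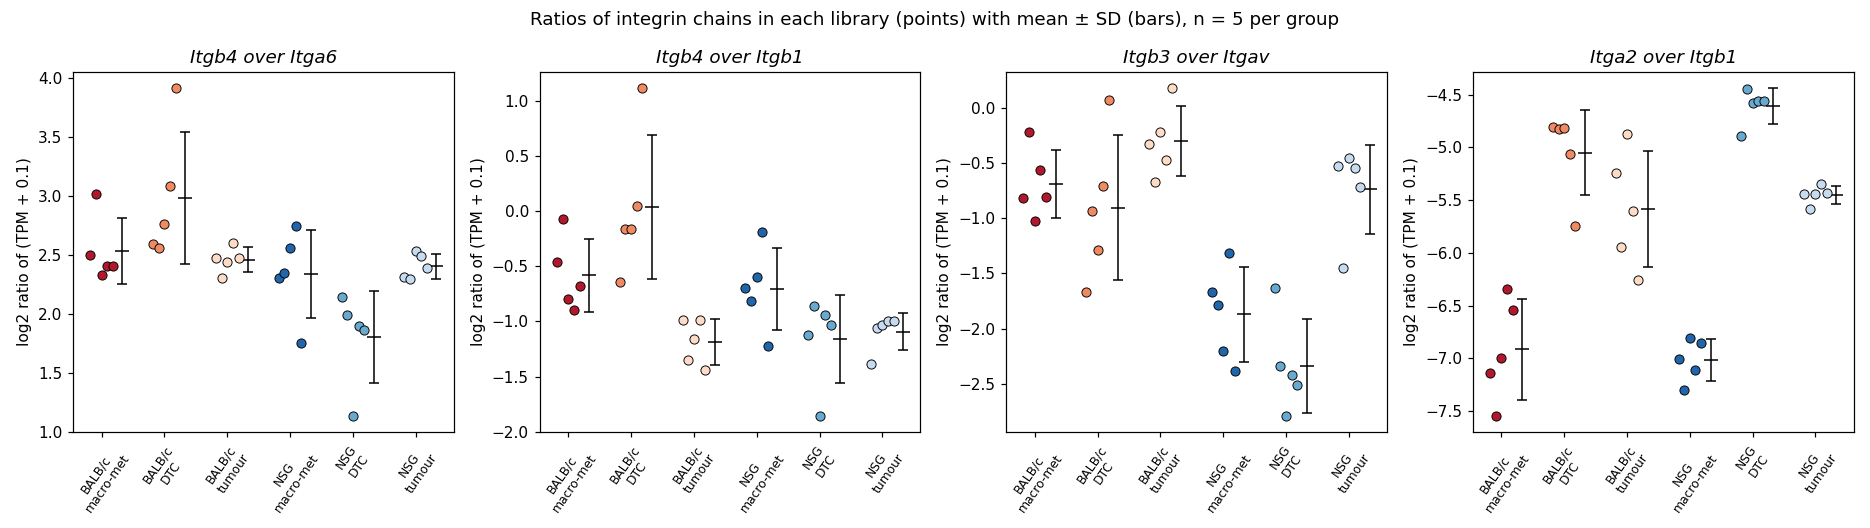
Log2 ratio of 2 integrin chains in TPM (vertical axes) in each library (points) of the 6 groups (horizontal axes), with mean and SD as bars. Itga2 over Itgb1 averages -6.91 ± 0.48 and -7.02 ± 0.20 in BALB/c and NSG macro-mets, below the other groups, and Itgb4 over Itga6 is higher in every BALB/c DTC than in every NSG DTC library.

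As a description of how members varied together, log2 CPM of Itga6 and Itgav correlated at r = 0.91 over the 30 libraries, and at 0.84 after group means were removed. For Itgav and Itgb1 the values were 0.89 and 0.78, and for Itga2 and Itgav 0.62 and 0.87. Cd44 and Itga6 had 0.85, but 0.42 within groups, and Vcam1 and Cd44 had the lowest value, -0.68. Libraries share group, depth and the GC trend. The level of Itga2 had r = -0.85 with the library's GC correlation, Alcam -0.83, Itgb1 -0.79, Itgav -0.62, Itga6 -0.55, Cd44 -0.38 and Itgb3 -0.16. Values above 0 were those of Itgb4 (0.15), Icam1 (0.40) and Vcam1 (0.33), although Vcam1 has the lowest GC content. Of 8902 other genes with enough counts, the nearest to Icam1 over the 30 libraries included Trim65 (0.88) and Sod2 (0.84). Sod2 encodes mitochondrial superoxide dismutase. Alcam was most like Skil (0.94), Ube2q2 (0.94) and Cep95 (0.93), Itga2 most like Ttll7 (0.96), Agtpbp1 (0.94) and Flrt3 (0.94), and Itgb1 most like Fam102b (0.98), Eif4g2 (0.96) and Lman1 (0.95). Nearest to Vcam1 were Sirt2 (0.87), Phactr1 (0.87) and Mgst2 (0.87), and nearest to Cd44 were Flt1 (0.92), Azin1 (0.89) and Uap1 (0.88). The highest values of Itga6 were with Atl3 (0.95), Frmd4a (0.94) and Cdv3 (0.94), those of Itgav with Man2a1 (0.94), Cacul1 (0.92) and Frmd4a (0.92), those of Itgb4 with Wdr90 (0.88), Adam8 (0.87) and Esyt1 (0.86), and those of Itgb3, the lowest of all, with Cln8 (0.78), Tmc4 (0.77) and Pmepa1 (0.76).

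Of the other integrin chains, Itgb5 fell in DTC against tumours and Itga10 rose in macro-mets against tumours in either host. The shares of all tested genes called higher and lower stand in parentheses after each count. Values and counts of this and the following lists are without the GC and length offsets, which moved several members, above all in NSG DTC. Of 14 tested, 2 rose and 4 fell (20.4% and 21%) in BALB/c DTC against tumours, 3 rose and 3 fell (16% and 9.55%) in NSG DTC against tumours, 2 rose and 1 fell (16.6% and 14.2%) in BALB/c macro-mets against DTC, and 4 rose and 3 fell (21.3% and 22.4%) in NSG macro-mets against DTC. Their median log2 fold change was -0.41 in the first of these comparisons (-0.09 over all tested genes), 0.03 in the second (0.06), -0.12 in the third (-0.04) and 0.31 in the fourth (0.02). Itgb5, a further beta chain of Itgav, fell in DTC against tumours (-1.25 ± 0.13 in BALB/c and -1.36 ± 0.13 in NSG hosts) and rose in macro-mets against DTC (1.10 ± 0.13 in BALB/c and 1.20 ± 0.13 in NSG hosts). Itgb6, the epithelial partner of Itgav, fell in macro-mets against DTC (-1.71 ± 0.42 in BALB/c and -1.77 ± 0.42 in NSG hosts). Among collagen-binding alpha chains, Itga10 rose in BALB/c (2.41 ± 0.16) and NSG macro-mets (1.85 ± 0.16) against tumours, and Itga1 fell (-1.30 ± 0.24 in BALB/c and -0.91 ± 0.24 in NSG hosts). In macro-mets against tumours 1 of the 14 chains rose and 4 fell (19.6% and 18.2%) in BALB/c hosts, and 1 rose and 1 fell (16.9% and 13.6%) in NSG hosts.

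Among matrix ligands of these integrins, 8 were not called in DTC against tumours in each host, and the called ones were lower. Of 12 matrix ligands tested, 0 rose and 4 fell (20.4% and 21%) in BALB/c DTC and 0 rose and 4 fell (16% and 9.55%) in NSG DTC against tumours, while 8 rose and 1 fell (16.6% and 14.2%) in BALB/c and 6 rose and 1 fell (21.3% and 22.4%) in NSG macro-mets against DTC. The median of these ligands was -0.03 in BALB/c and -0.35 in NSG DTC over tumours, and 0.86 in BALB/c and 0.66 in NSG macro-mets over DTC, beside the medians of all tested genes given above. Fibronectin, Fn1, fell in BALB/c DTC (-1.11 ± 0.17) and NSG DTC (-0.63 ± 0.17), as did thrombospondin 1, Thbs1 (-1.21 ± 0.14 in BALB/c and -0.61 ± 0.14 in NSG hosts). In macro-mets over DTC, Thbs1 was 1.56 ± 0.14 in BALB/c and 0.79 ± 0.14 in NSG hosts, and fibulin 2, Fbln2, 1.86 ± 0.19 in BALB/c and 1.70 ± 0.19 in NSG hosts. Of 7 genes of hemidesmosomes and their laminin, 1 rose and 3 fell (19.6% and 18.2%) in BALB/c and 0 rose and 4 fell (16.9% and 13.6%) in NSG macro-mets against tumours, with a median of -0.86 in BALB/c (-0.03 over all genes) and -1.05 in NSG hosts (0.02 over all genes). The falls included the laminin chain genes Lama3 (-0.86 ± 0.21 in BALB/c and -1.73 ± 0.21 in NSG hosts) and Lamb3 (-1.10 ± 0.24 in BALB/c and -1.64 ± 0.24 in NSG hosts), whose product is the ligand of the Itga6 and Itgb4 pair. Dst, which encodes a plakin that binds Itgb4, was lower in BALB/c than in NSG DTC (-2.36 ± 0.30).

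Inside the cell, 28 adaptor and signalling genes of integrins were tested. In macro-mets against tumours 16 rose and 2 fell (19.6% and 18.2%) in BALB/c hosts and 11 rose and 1 fell (16.9% and 13.6%) in NSG hosts. Their median log2 fold change was 0.41 in BALB/c (-0.03 over all genes) and 0.27 in NSG hosts (0.02 over all genes). The tensin gene Tns3 rose in BALB/c (1.31 ± 0.14) and NSG macro-mets (1.03 ± 0.14), while Fermt1, the epithelial kindlin that activates integrins, fell (-1.09 ± 0.22 in BALB/c and -2.50 ± 0.23 in NSG hosts). In BALB/c DTC against tumours 10 rose and 2 fell (20.4% and 21%), among them talin 2, Tln2 (1.27 ± 0.19), and zyxin, Zyx (0.67 ± 0.14), and in NSG DTC 3 rose and 2 fell (16% and 9.55%), among them focal adhesion kinase, Ptk2 (0.68 ± 0.12).

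Of 13 genes of hyaluronan and of Cd44 partners, 2 rose and 3 fell (16.6% and 14.2%) in BALB/c and 2 rose and 6 fell (21.3% and 22.4%) in NSG macro-mets against DTC, with a median of -0.46 in BALB/c (-0.04 over all genes) and -0.65 in NSG hosts (0.02 over all genes). Cemip, which takes part in hyaluronan breakdown, rose (2.45 ± 0.26 in BALB/c and 2.18 ± 0.26 in NSG hosts), and Hmmr, a hyaluronan-binding protein of the mitotic spindle, fell (-1.68 ± 0.41 in BALB/c and -4.60 ± 0.47 in NSG hosts). Esrp1, the splicing factor of epithelial Cd44 isoforms, fell in BALB/c macro-mets against tumours (-1.10 ± 0.20), where 2 of the 13 genes rose and 5 fell (19.6% and 18.2%). Of 21 other immunoglobulin-type adhesion molecules tested, 5 rose and 2 fell (20.4% and 21%) in BALB/c DTC against tumours, with a median of 0.43 (-0.09 over all genes). The rises included Nectin1 (1.16 ± 0.16), an epithelial junction protein, and also Icam2 and Esam, both made by endothelial cells, whose marker sums were higher there as given above. Cxadr, a tight junction protein, fell in BALB/c DTC (-2.04 ± 0.21) and BALB/c macro-mets (-0.95 ± 0.20) against tumours. Of the 21 molecules, 1 rose and 6 fell (19.6% and 18.2%) in BALB/c macro-mets against tumours.

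Between hosts, BALB/c over NSG DTC had 1 of 14 other integrin chains called higher and 2 lower, 5 and 11 of 28 adaptor and signalling genes, 0 and 7 of 12 matrix ligands and 1 and 3 of 7 genes of hemidesmosomes and their laminin, where 17.1% of all tested genes were called higher and 21.7% lower. The medians were -0.14, -0.14, -0.71 and -0.38, against -0.01 over all genes. Ptk2, which encodes focal adhesion kinase, was lower in BALB/c DTC (-0.80 ± 0.12), as were Fn1 (-1.24 ± 0.18) and Thbs1 (-0.80 ± 0.14), while Src, a kinase that acts with Ptk2 at focal adhesions, was higher (0.73 ± 0.14). Bcam, a receptor for laminin alpha 5, was higher too (2.04 ± 0.37). Of 21 other immunoglobulin-type adhesion molecules, 3 were called higher and 3 lower in BALB/c than in NSG DTC, with a median of 0.29.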

How the data were processed

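RNA-seq libraries of sorted 4T1-tdTomato cells were deposited as raw counts and as TPM per gene. The authors trimmed reads with Trimmomatic 0.36 and aligned them with STAR 2.5.2b to GRCm38, per the submitters' processing notes; the counter, its strand setting and the annotation release are not given in the sources used here. From the deposited counts, genes were filtered by edgeR's filterByExpr, scaled by TMM and tested with edgeR 4.0.16 (robust quasi-likelihood F-test, R 4.3.3) in 1 fit over 6 groups with 12 contrasts, of which 3 test host differences. P-values were adjusted by Benjamini-Hochberg over 17774 genes, and SE was the log2 fold change divided by the root of F. The fit was tested on simulated counts. Chain ratios used the deposited TPM and exact permutation tests. Alternatives were DESeq2 1.42.0, limma 3.58.1, other scalings and filters, GC and length offsets (splines per library), a lung marker covariate and leaving out libraries. Members and lists were chosen with earlier results of these data known. Listed genes are named as the called ones with the smallest adjusted p, up to 3 per direction, list and comparison. Promoters came from RefSeq (GRCm38.p6), which held 6 of 10 members. Coordinates are GENCODE's on GRCm38. Genes overlapping a member held few counts, and without a stated strand their reads cannot be told apart from the member's.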

Additional observations from a re-analysis of the deposited data

Results flagged for a closer look

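Icam1 in BALB/c macro-met replicate 1 was at 17.1 CPM and stood apart from the other 4 libraries of its group, which were at 36.3 to 46.2 CPM. Itgav in BALB/c DTC replicate 5 was at 43.7 CPM, the lowest of its group by a wide gap. Itgb4 stood apart in BALB/c macro-met replicate 2 (898 CPM, the highest of its group) and in NSG DTC replicate 3 (660 CPM, the lowest). These 4 came from 60 pairs of a gene and a group, of which chance would flag about 1 in 20.

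The change between DTC and tumours differed between hosts for 6 members by an interaction term. The differences, BALB/c minus NSG on the log2 scale, were 1.40 for Icam1 and 0.53 for Itgb4, and -1.58 for Alcam, -0.59 for Itga6, -0.91 for Itgav and -0.74 for Itgb1. The step between macro-mets and DTC differed for 7 members. It was -1.41 for Icam1, 2.37 for Alcam, 1.65 for Itga2, 0.98 for Itga6, 1.29 for Itgav, 1.07 for Itgb1 and 1.02 for Itgb3. For macro-mets over tumours, Itgb3 differed by 1.09. With the GC and length offsets the values for Icam1 were 0.73 and -0.77, and those for Itgav 0.30 and 0.13, for DTC over tumours and for macro-mets over DTC.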

How the results depend on the processing

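The GC and length offsets turned the sign of 19 of 120 member values, of which 11 were called neither with nor without them. The other 8 were Itgav in NSG DTC over tumours (-0.12), Cd44 (0.13) and Itgav (0.21) in NSG macro-mets over DTC, Vcam1 in BALB/c macro-mets over tumours (0.36), Cd44 in BALB/c over NSG DTC (0.012), and Vcam1 (1.02), Cd44 (0.69) and Itgav (0.30) in the host difference of DTC over tumours. With the sign kept, the offsets ended a call in 12 results and made one in 12. They moved the median of all genes by -0.16 in NSG macro-mets over DTC, -0.13 in BALB/c over NSG DTC, -0.16 in the host difference of DTC over tumours and 0.16 in that of macro-mets over DTC, and log2(TPM + 0.1) moved it by 0.29 in the last. No other alternative turned the sign of a called member.

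Counts of members called moved by over 1.5 times as follows. NSG DTC over tumours had 2 with the lung marker covariate, against 7. BALB/c macro-mets over tumours had 7 with the offsets and 5 with the covariate, against 3. BALB/c over NSG macro-mets had 1 without the gene-poor libraries, against 3. BALB/c over NSG DTC had 5 with the offsets, against 8. BALB/c over NSG tumours had 4 on log2(TPM + 1) and on log2(TPM + 0.1), against 7. The host difference of macro-mets over tumours had 0 with edgeR and no low-count filter (3 at an unadjusted p under 0.05) and 0 with limma on log2(TPM + 1) (3) and log2(TPM + 0.1) (4), 1 with DESeq2, and 2 when only the groups compared were fitted or with the offsets, against 1. Chain ratios passed in 6 tests without the gene-poor libraries, against 14. The cause of these moves was not tested.

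Leaving out 1 library at a time gave 7 members called in BALB/c and 6 to 7 in NSG DTC over tumours, 3 to 6 in BALB/c and 7 to 8 in NSG macro-mets over DTC, 3 to 4 in BALB/c and 5 in NSG macro-mets over tumours, 0 to 3 in BALB/c over NSG macro-mets, 7 to 8 in DTC, 4 to 7 in tumours, 5 to 7, 7 to 8 and 0 to 2 in the host differences of DTC over tumours, macro-mets over DTC and macro-mets over tumours, and 13 to 18 passing ratios. The count for macro-mets between hosts was 0 without BALB/c macro-met replicate 4 and 1 without BALB/c macro-met replicate 5 or NSG macro-met replicates 1, 3 or 4, and that for tumours was 4 without replicate 5 of either host. No paired analysis was possible because the titles share no replicate numbers between groups. Every member held at least 127 counts in every library.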
